A study of Mus musculus with 2 samples.

Results

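The 42 genes described here encode growth factors, the proteins that bind them outside the cell and the receptors they act through, nearly all of them receptor tyrosine kinases, with the ErbB family left out. They were chosen by name, from the FGF, IGF, HGF, PDGF, VEGF, KIT, neurotrophin, GDNF, TAM and collagen-receptor systems. All 42 were found among the 49492 genes of the count table. At least 10 reads summed over both libraries were present for 39 of them, which were tested, and 3 (Fgf10, Fgf18 and Fgfr4) fell below that limit.

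The study examined how macrophages act on the basal cells of the mouse mammary epithelium, the compartment that holds mammary stem cells. Both groups consist of WT primary cells of the basal gate (lin-CD24+CD29hi), sorted by FACS from mammary glands of adult females, which per the study's methods were 8 to 10 weeks old. The cells grew as colonies or organoids in a 3D matrix gel, in a medium with EGF and ITS (insulin, transferrin and selenium), so that an ErbB ligand and insulin were added to both groups. The ctrl group was grown with no macrophages, and the M2 group shared its wells for 11 to 14 days with bone marrow-derived macrophages that had been polarised with IL-4 and IL-13. The macrophages were kept apart by a porous membrane, were renewed during the culture and were not part of the gel that was harvested. The methods give a range of days for 3D colonies in general but not the day on which the ctrl library was harvested, and the number of mice behind a library is not stated. Each group is 1 library, with no replicate check of any difference.

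Receptor tyrosine kinases span the membrane, pair when a ligand binds and phosphorylate each other, which starts the RAS-ERK, PI3K-AKT and PLC gamma pathways inside the cell. Many of the ligands are held outside the cell by heparan sulfate or by binding proteins, so the amount of free ligand depends on more than its transcript. In the mammary gland FGF and IGF signals are known for their part in the outgrowth and branching of the ducts, KIT marks progenitors of the luminal layer and PDGF and VEGF signals run mostly between the epithelium, the stroma and the vessels.

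The promoters of 5 genes with called differences are shown: 3 of the 4 that rose, leaving out Igf1, whose RefSeq start lies 2846 bases from the start in the count table, and the 2 with the most reads among those that fell. Each runs from 250 bases before to 50 bases after the start of transcription in RefSeq (GRCm38.p6), 5′ to 3′ on the strand of the gene. They lie at chr5:147725962-147726261 on the minus strand (Flt1), chr11:99040994-99041293 on the plus strand (Igfbp4), chr8:54077282-54077581 on the plus strand (Vegfc), chr8:13494486-13494785 on the minus strand (Gas6) and chr5:75574737-75575036 on the plus strand (Kit). Capitals mark matches, on either strand, to the TATA box (TATAAA), the GC box (GGGCGG), the CCAAT box (CCAAT), the core of the hypoxia response element (ACGTG or GCGTG) and the AP-1 site (TGANTCA).
Flt1: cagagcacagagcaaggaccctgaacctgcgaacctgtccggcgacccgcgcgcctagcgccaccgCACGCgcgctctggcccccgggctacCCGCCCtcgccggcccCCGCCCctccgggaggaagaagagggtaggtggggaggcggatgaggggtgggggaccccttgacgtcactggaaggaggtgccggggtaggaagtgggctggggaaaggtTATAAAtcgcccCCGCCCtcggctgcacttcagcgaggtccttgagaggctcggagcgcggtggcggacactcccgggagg
Igfbp4: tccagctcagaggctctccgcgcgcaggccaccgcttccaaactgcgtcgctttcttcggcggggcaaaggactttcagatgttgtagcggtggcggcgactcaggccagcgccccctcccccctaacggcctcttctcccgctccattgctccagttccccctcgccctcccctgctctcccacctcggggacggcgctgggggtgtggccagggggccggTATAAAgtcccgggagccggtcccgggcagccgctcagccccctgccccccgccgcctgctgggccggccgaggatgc
Vegfc: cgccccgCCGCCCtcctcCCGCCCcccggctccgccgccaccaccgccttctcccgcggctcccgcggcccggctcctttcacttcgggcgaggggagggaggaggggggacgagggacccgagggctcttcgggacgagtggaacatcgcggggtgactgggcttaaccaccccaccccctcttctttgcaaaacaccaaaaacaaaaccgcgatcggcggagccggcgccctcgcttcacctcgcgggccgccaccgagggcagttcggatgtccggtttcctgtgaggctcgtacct
Gas6: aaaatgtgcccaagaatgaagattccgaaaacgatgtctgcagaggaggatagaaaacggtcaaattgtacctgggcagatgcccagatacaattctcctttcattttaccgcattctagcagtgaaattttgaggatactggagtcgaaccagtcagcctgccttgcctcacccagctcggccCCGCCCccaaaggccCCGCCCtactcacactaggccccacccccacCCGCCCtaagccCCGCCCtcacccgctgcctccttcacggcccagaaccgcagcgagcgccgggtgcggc
Kit: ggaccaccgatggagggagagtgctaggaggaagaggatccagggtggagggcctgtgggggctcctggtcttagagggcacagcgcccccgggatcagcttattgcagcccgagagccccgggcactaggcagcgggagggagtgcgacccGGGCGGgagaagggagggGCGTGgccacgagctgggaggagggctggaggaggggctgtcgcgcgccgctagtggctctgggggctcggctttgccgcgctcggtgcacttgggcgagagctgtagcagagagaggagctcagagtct

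Among the 3 genes that rose, Flt1 held a TATA box that begins 31 bases before the start (position -31), 3 GC boxes and 1 hypoxia response core at position -184. Igfbp4 held only a TATA box, at position -28, and Vegfc only 2 GC boxes. Of the genes that fell, Gas6 held 4 GC boxes in the last 70 bases before its start and none of the other motifs. Kit held 1 GC box at position -98 and 1 hypoxia response core at position -80. RefSeq promoters were matched by symbol for 36 of the 42 genes, and Fgf1, Fgfr1, Insr, Pdgfb, Pdgfrb and Ret were not matched. For some of the 36 the start used lay far from that of the count table, by 2856542 bases for Fgfr2, 44908 for Fgf10 and 21818 for Ddr2. Each of the 36 genes has a single start, whereas the set of all promoters holds every distinct sequence, so the shares are not fully alike. A GC box was found in 25 of the 36 (69.4%) and in 35.9% of all 32544 promoters of the table, and a hypoxia response core in 23 (63.9%) against 44.0%. A CCAAT box was found in 5 (13.9%) against 37.4% of all promoters, a TATA box in 5 (13.9%) against 13.6% and an AP-1 site in 2 (5.56%) against 7.79%. The median GC content was 65.7% in the 36 promoters and 53.0% in all of them. These matches describe the letters in the window and say nothing of which factors bind there.

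The libraries held 26912610 reads (ctrl) and 29413844 reads (M2) assigned to genes, and their effective sizes after scaling by the trimmed mean of M values (TMM) differed by less than 5%. The values deposited are raw counts, and log2 differences compare M2 with ctrl, after 1 read was added and each library was divided by its effective size. Calls needed an adjusted p under 0.05 (two-sided exact binomial test on the reads, Benjamini-Hochberg adjustment over 19233 genes) and a difference of at least 2-fold. The test compares the libraries, not the conditions, and intervals are 95% counting intervals only. The basal markers (keratins 5 and 14, Trp63, smooth muscle genes) summed to 227344 reads in ctrl and 239331 in M2, giving a log2 difference of 0.0049, with Krt14, Krt5 and Myh11 the most read and none at 3 reads or fewer. The median over the 10 basal markers was -0.17, and 1 of them was called, Oxtr (chosen with its values known), which fell from 8324 to 1920 reads. The luminal markers summed to 96068 and 91065 reads, so both libraries held luminal transcripts as well as basal ones, and Krt8 and Krt18 were among the most read of these. Since these are bulk samples, fewer cells of a type and less RNA per cell cannot be told apart.

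Of the 39 genes tested, 4 rose in the M2 library (Flt1, Igf1, Igfbp4 and Vegfc) and 8 fell (Gas6, Pdgfrb, Kit, Tyro3, Ntrk2, Igfbp3, Mertk and Kdr), while 27 were not called. Over all 19233 genes, 8.16% were called higher and 6.55% lower, with a median log2 difference of -0.0032. The median over the 39 genes was 0.08, and the median size of the difference in either direction was 0.75 against 0.33 over all genes. An adjusted p under 0.05 was reached by 34 of the 39, most of them with differences under 2-fold, and by 10221 of all 19233 genes. Smaller differences reach it in genes with more reads, and the 39 were not matched to all genes for read number. By role, 1 of 20 receptors rose and 6 fell, and 2 of 13 ligands rose and 1 fell.

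**Figure D1:**
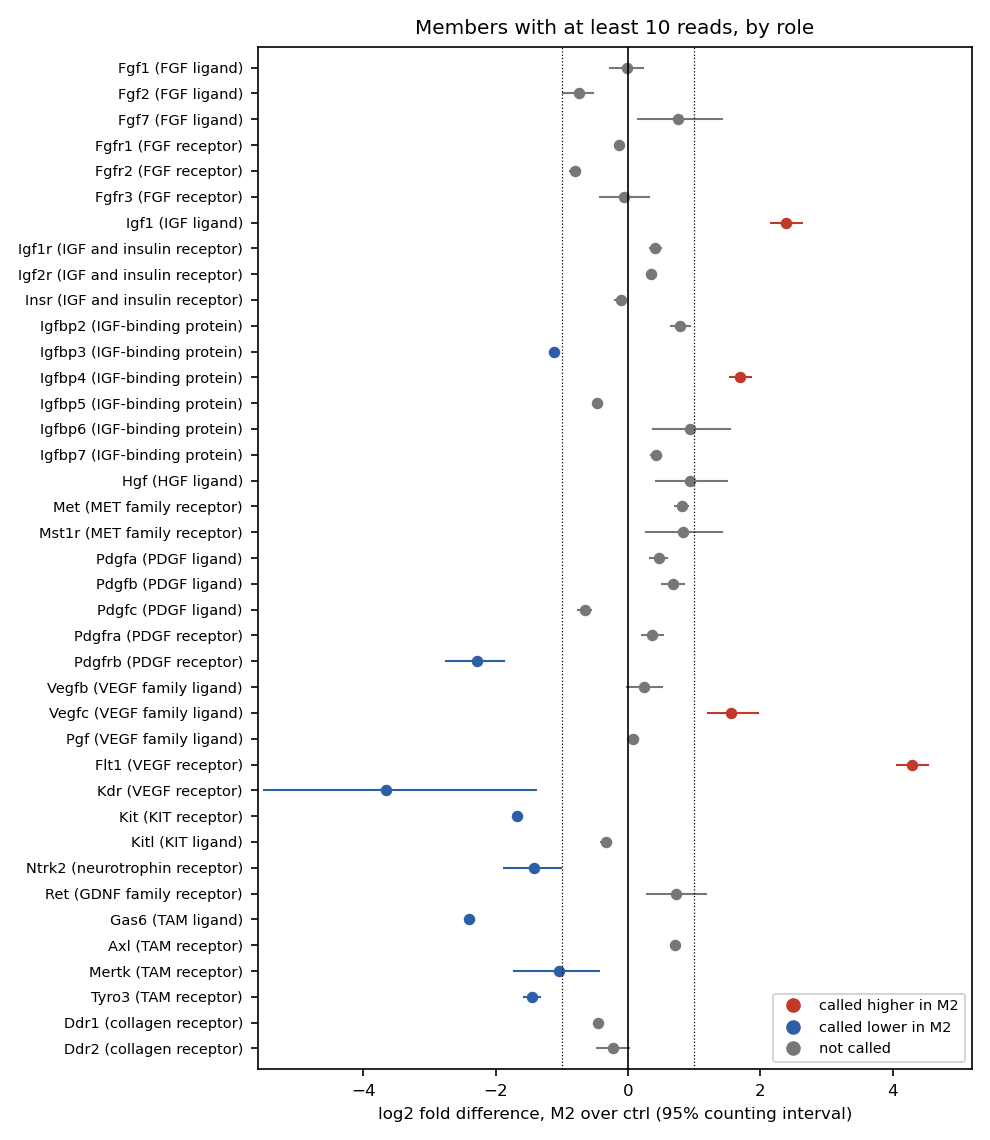
Log2 difference of the M2 over the ctrl library (x axis) for the 39 genes with at least 10 reads, ordered by role (y axis). Points are the values of 1 library per group, horizontal lines are 95% counting intervals and dotted lines mark 2-fold. Flt1 lies farthest to the right at 4.29, and the interval of Kdr, which had no read in M2, runs off the left edge.

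When a spread between replicates was assumed, since none can be measured here, some of these calls were lost. With a coefficient of variation set at 0.2 in the exactTest function of edgeR, 4 of the 39 genes were called higher and 6 lower, against 5.01% and 3.59% of all genes. The losses were Igfbp3 (adjusted p = 0.0740) and Mertk (adjusted p = 0.293). At a coefficient of 0.4, Flt1 alone was called higher (adjusted p = 0.0014 by the edgeR exactTest) and none lower, against 0.91% and 0.676% of all genes.

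Of the 9 FGF ligands and receptors among the 42 genes, 6 were tested and none was called. FGF receptors are tyrosine kinases whose ligands need heparan sulfate as a partner, and FGFR2 with its stromal ligands Fgf7 and Fgf10 is the pair best known in the mammary bud and duct. Fgfr1 (chromosome 8, 25513654 to 25575718, GRCm38) had 9506 reads in ctrl and 9075 in M2, giving a log2 difference of -0.14. Fgfr2 had 3256 and 1961 reads, with a log2 difference of -0.80 and an interval of -0.88 to -0.72. The Fgfr2 difference was larger than counting error but under 2-fold, and its gene model in the count table runs from 130162451 to 133123350 on chromosome 7 and shares 314 bases with Ctbp2, whose reads cannot be told from its own there. Fgfr3 had 125 and 126 reads (log2 difference of -0.06), and Fgfr4 had 3 reads in ctrl and 0 in M2. Per length, Fgfr1 made up 74.3% of the summed level of the 4 receptors in ctrl and 81.6% in M2, and Fgfr2 24.3% and 16.9%.

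The FGF ligands were at low levels, at most 2.27 RPKM (reads per kilobase of the counted length, scaled to the library size). Fgf1, which binds every FGF receptor, had 265 and 274 reads, giving a log2 difference of -0.02 (interval of -0.27 to 0.23). Fgf2, the basic FGF of many stem cell media, had 423 and 264 reads and a log2 difference of -0.75 (interval of -0.98 to -0.52). Its annotated exons share 640 bases with the antisense gene Nudt6, and the use of strand in the counting is not stated, so part of its reads could belong to Nudt6. Fgf7, usually a product of the stroma, had 34 and 61 reads and a log2 difference of 0.76 with a wide interval of 0.15 to 1.42. Fgf10 had 0 reads in both libraries, which allows up to 0.109 CPM (reads scaled to the library size) in ctrl and 0.104 in M2, and Fgf18 had 2 in each, so a difference of either was not detectable at this depth.

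In the IGF system the ligand rose while the receptors stayed under the threshold. Igf1 (chromosome 10, 87858265 to 87937042), a growth factor of liver and stroma that acts through IGF1R, rose from 187 to 1030 reads. This was a 5.23-fold difference, or 2.39 on the log2 scale (interval of 2.17 to 2.62; adjusted p = 2.5e-131, exact binomial test with Benjamini-Hochberg adjustment). Its level was 0.687 RPKM in ctrl and 3.61 in M2, which placed it 14864th and 9764th of the 19233 genes. The gene has 8 coding transcripts in GENCODE M21, of 135 to 165 codons, which gene counts cannot separate. Macrophages are also a source of Igf1, so the macrophage markers are given beside it. The 14 macrophage markers summed to 281 reads in ctrl and 346 in M2, with 11 and 8 of them at 3 reads or fewer. Adgre1, Fcer1g, C1qb, C1qc and Tyrobp had 0 reads in both libraries. Cd68 (170 and 165 reads) and Csf1r (94 and 92 reads) held most of the sum, whereas Aif1 (3 and 40 reads) and Cd163 (2 and 30 reads, chosen after its values were seen) rose. The part of macrophage RNA in the rise of Igf1 was not tested beyond these counts.

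None of the receptors of this system was called. For comparison, the median size of the difference was 0.75 over the 39 genes and 0.33 over all genes. Igf1r, the signalling receptor of IGF1 and IGF2, had 2288 and 3198 reads and a log2 difference of 0.41 (interval of 0.34 to 0.49). Igf2r, which carries IGF2 to the lysosome and is no tyrosine kinase, had 5633 and 7494 reads and a log2 difference of 0.34. Insr, the insulin receptor, had 2401 and 2330 reads and a log2 difference of -0.11. Relative to Igf1r, the level of Igf1 per length went from 0.139 to 0.546, so the ligand remained below the receptor in both libraries.

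The 6 binding proteins, which hold IGFs outside the cell and set how much reaches the receptor, did not move together. Igfbp4, an inhibitory binding protein cleaved by the protease PAPP-A, rose from 424 to 1440 reads, giving a log2 difference of 1.69 (interval of 1.54 to 1.85; adjusted p = 3.3e-117, exact binomial test with Benjamini-Hochberg adjustment). Igfbp3, the main carrier of IGF1 in serum, fell from 7972 to 3846 reads, giving a log2 difference of -1.12 (interval of -1.18 to -1.07). The change in the ratio of Igfbp4 to Igfbp3, a pair chosen after the values were seen, was 2.82 on the log2 scale. The other members were not called. Igfbp2 had 580 and 1054 reads (log2 difference of 0.79), Igfbp6 had 39 and 79 (0.93) and Igfbp7, a low-affinity relative, had 2164 and 3050 (0.43). Igfbp7 shares 85 bases with Polr2b on the opposite strand.

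Igfbp5, a binding protein best known in the mammary gland for its rise at involution, had more reads than any other gene of the ctrl library. It had 337432 reads in ctrl and 256840 in M2, or 1.25% and 0.873% of all reads (Wilson intervals of 1.25 to 1.26% and 0.870 to 0.877%). In M2 a single gene had more reads, the mitochondrial gene mt-Co1. The log2 difference was -0.46, with a narrow interval of -0.47 to -0.46 that lies well clear of 0 and well short of 2-fold. Per length it ranked 16th in ctrl and 23rd in M2, at 2045 and 1484 RPKM, and made up 92.2% and 90.1% of the summed level of the 6 binding proteins. Without it, the largest share went from Igfbp3 in ctrl (53.3%, and 26.0% in M2) to Igfbp7 in M2 (37.4% in ctrl and 53.5% in M2). Igfbp5 and Igfbp2 are neighbours on chromosome 1, 5.46 kb apart, with log2 differences of opposite sign.

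**Figure D2:**
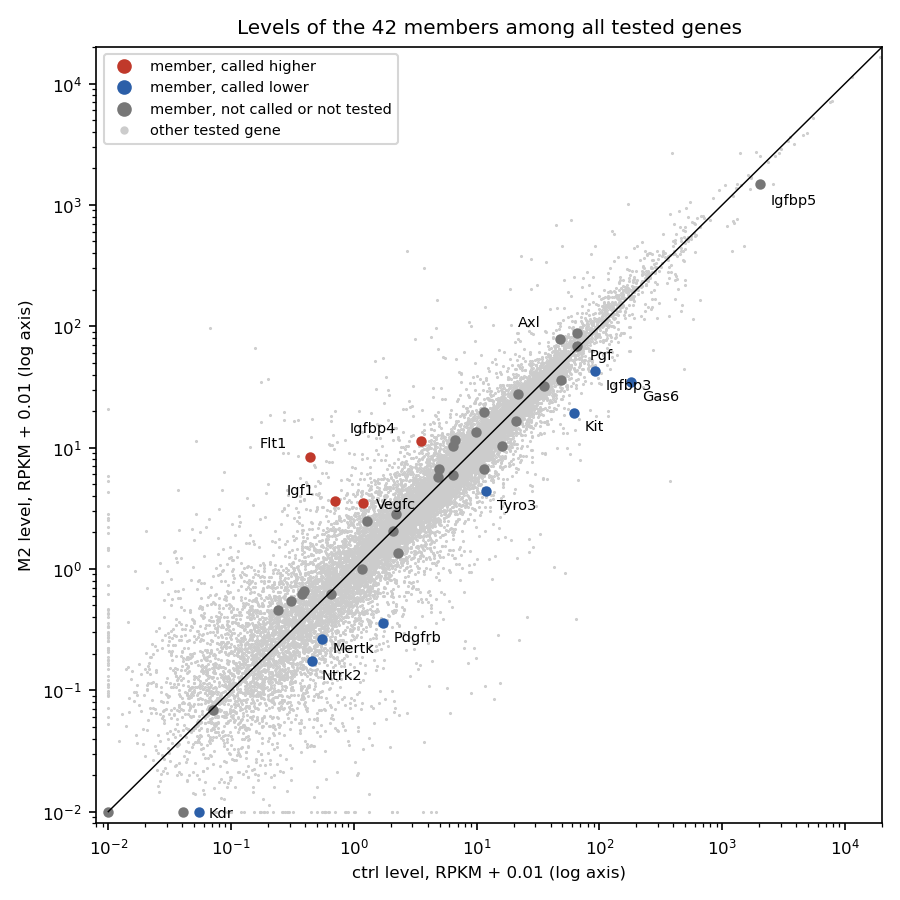
Level in the ctrl library (x axis) against the M2 library (y axis), in RPKM plus 0.01 on log axes, for the 42 genes described here and all other genes tested. The line marks equal levels. Of the 42 genes, Igfbp5 has the highest level (2045 RPKM in ctrl and 1484 in M2), Flt1 lies farthest above the line (0.426 and 8.38 RPKM), and Gas6, Igfbp3 and Kit are the called genes with the highest levels below it.

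The largest rise of the 39 genes was that of a VEGF receptor. Flt1 (chromosome 5, 147561604 to 147726011), which encodes VEGF receptor 1 and acts largely as a decoy for VEGFA, VEGFB and PGF, rose from 158 to 3263 reads. This difference was 19.6-fold, or 4.29 on the log2 scale (interval of 4.07 to 4.54). Its adjusted p was too small to be represented in the exact binomial test. The same held for Gas6, Kit and Igfbp3, and for Igfbp5, whose difference was under 2-fold. The level of Flt1 went from 0.426 to 8.38 RPKM, from place 15906 to place 6148 of 19233. Annotated coding transcripts of Flt1 run from 688 to 1333 codons, the shorter coding for the secreted form, and the counts do not say which form the reads came from. Kdr, which encodes VEGF receptor 2, the main signalling receptor of endothelium, had 11 reads in ctrl and 0 in M2. Set against a floor of 3 reads for a count of 0, the fall was 3.85-fold, on very few reads (adjusted p = 0.000991, exact binomial test with Benjamini-Hochberg adjustment). The counting interval of Kdr has no lower limit and an upper limit of -1.40 on the log2 scale, which allows a smaller fall.

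Endothelial markers were close to absent in both libraries. The 8 of them summed to 84 reads in ctrl and 123 in M2, with 3 and 4 at 3 reads or fewer and Cldn5 at 0 in both. Pecam1, the surface marker CD31 that was used to exclude endothelium from the sort, rose from 33 to 76 reads, while Egfl7 (28 and 24 reads) and Vwf (4 and 12 reads) were not called. Cdh5, chosen after its values were seen, fell from 11 to 2 reads. The part of endothelial RNA in the differences of Flt1 and Kdr was not tested.

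Of the VEGF family ligands 1 of 3 was called higher, against 8.16% of all genes. Vegfc, the growth factor of lymphatic vessels, rose from 79 to 247 reads, giving a log2 difference of 1.56 (interval of 1.20 to 1.96; adjusted p = 9.6e-19, exact binomial test with Benjamini-Hochberg adjustment). Pgf, the placental growth factor that binds FLT1 but not KDR, had 2849 and 3156 reads and a log2 difference of 0.08, and Vegfb had 214 and 266 reads and one of 0.24. Pgf was the most expressed of the 3 per length, at 65.6 and 69.2 RPKM. When Vegfa, which is not among the 42 genes, was set beside them, its share of the family's level was 9.98% in ctrl and 43.7% in M2, and that of Pgf 82.4% and 49.7%. Vegfa itself rose from 934 to 7510 reads, giving a log2 difference of 2.94 (interval of 2.84 to 3.04).

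Of the PDGF receptors and ligands only Pdgfrb was called, and the differences of the others, all under 2-fold, were not all of the same sign. Pdgfrb (chromosome 18, 61045150 to 61085061), the receptor of pericytes and fibroblasts, fell from 259 to 55 reads, giving a log2 difference of -2.28 (interval of -2.75 to -1.88; adjusted p = 4.0e-34, exact binomial test with Benjamini-Hochberg adjustment). Pdgfra had 607 and 822 reads and a log2 difference of 0.37, so the ratio of Pdgfra to Pdgfrb per length went from 1.28 to 8.17. Pdgfa and Pdgfb, which form the classical dimers, had 839 and 1213 reads (log2 difference of 0.46) and 514 and 863 reads (0.68). Pdgfc, which must be cleaved before it binds, had 2266 and 1507 reads and a log2 difference of -0.66. None of the 3 ligands was called, but the most expressed of them per length was Pdgfc in ctrl (16.2 RPKM, and 10.3 in M2) and Pdgfa in M2 (9.79 RPKM in ctrl and 13.5 in M2). Pdgfa shares 813 bases, 26.1% of its counted length, with an antisense gene, 6330403L08Rik.

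Markers of the stroma did not all move the same way. The 10 fibroblast markers summed to 8871 reads in ctrl and 3936 in M2, giving a log2 difference of -1.24, with 2 of the 10 at 3 reads or fewer in each library. Among the most read, Col1a2 fell from 4463 to 1457 reads and Col3a1 from 1612 to 276, whereas Col1a1 had 2057 and 1097 reads and was not called. Dcn and Fbln1, chosen after their values were seen, rose from 51 to 157 and from 62 to 485 reads. The 5 pericyte markers summed to 2376 and 3891 reads, with 1 and 0 at 3 reads or fewer, nearly all of them Mcam (2252 and 3751), while Cspg4 had 72 and 101 reads and Rgs5 22 and 28, none of them called. The only pericyte marker called, Abcc9, chosen after its values were seen, fell from 29 to 7 reads. The 6 adipocyte markers summed to 267 and 19 reads, with Lep at 198 and 6, Fabp4 at 62 and 10, Retn at 2 in both libraries and 4 of the 6 at 3 reads or fewer in each. The part of these cell types in the differences of Pdgfrb, and of the other genes described here, was not tested.

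KIT and its ligand stood at 61.7 and 20.8 RPKM in ctrl, and the receptor fell. Kit (chromosome 5, 75574916 to 75656722), the receptor of stem cell factor, fell from 15110 to 4973 reads. The difference was -1.67 on the log2 scale (interval of -1.72 to -1.63), or 3.19-fold. Kitl, which encodes stem cell factor in membrane-bound and soluble forms, had 3295 and 2754 reads and a log2 difference of -0.33 (interval of -0.40 to -0.25). Per length Kit stood at 2.97 times Kitl in ctrl and 1.17 times in M2. Of the 10 luminal markers 4 fell: Elf5 from 5704 to 2776 reads, Foxa1 from 2443 to 873, Esr1 from 1028 to 281 and Pgr from 3195 to 575, named after their values were seen. Over all genes 6.55% were called lower. The median log2 difference over the 10 luminal markers was -0.44, and that of their summed reads was -0.15. Krt8 (29888 and 36348 reads), Epcam (20919 and 22821) and Krt18 (14001 and 14225), the most read of the list, were not called, and the part of the luminal cells in the fall of Kit was not tested. Pdgfra, Kit and Kdr are the nearest of these genes to each other on chromosome 5, with 377 kb between Pdgfra and Kit and 276 kb between Kit and Kdr, and of the 3 only Kit and Kdr fell.

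In the TAM system GAS6 and protein S bind the receptors TYRO3, AXL and MERTK. Of its 5 genes 3 were called, all of them lower, against 6.55% of all genes called lower. The call of Mertk was lost at an assumed coefficient of variation of 0.2. Axl and Pros1 (protein S, not among the 42 genes) were not called. Gas6 (chromosome 8, 13465374 to 13494490), a vitamin K-dependent ligand with its highest affinity for AXL, fell from 12730 to 2526 reads. The difference was -2.40 on the log2 scale (interval of -2.46 to -2.34), or 5.29-fold, and was the largest fall among those of the 39 genes that had reads in both libraries. Gas6 ranked 230th per length in ctrl, at 182 RPKM, and 1691st in M2, at 34.4 RPKM. Its annotated exons share 34 bases with Tmem255b on the opposite strand, which had 699 and 149 reads.

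Tyro3 fell from 2034 to 783 reads, giving a log2 difference of -1.45 (interval of -1.57 to -1.33; adjusted p = 6.4e-139, exact binomial test with Benjamini-Hochberg adjustment). Mertk, the TAM receptor of phagocytes, fell from 64 to 32 reads, giving a log2 difference of -1.05 whose interval of -1.73 to -0.44 includes differences under 2-fold (adjusted p = 0.00124, exact binomial test with Benjamini-Hochberg adjustment). Axl, by contrast, had 6567 and 11282 reads and a log2 difference of 0.71 (interval of 0.67 to 0.76), under the threshold. Per length Axl made up 79.2% of the 3 receptors in ctrl and 94.4% in M2, and Tyro3 19.9% and 5.32%. The ratio of Axl to Tyro3 thus changed by 2.16 on the log2 scale (interval of 2.03 to 2.29), and that of Gas6 to Axl went from 3.83 to 0.442, pairs that were chosen after the values were seen. Pros1 had 2202 and 2794 reads and a log2 difference of 0.27.

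**Figure D3:**
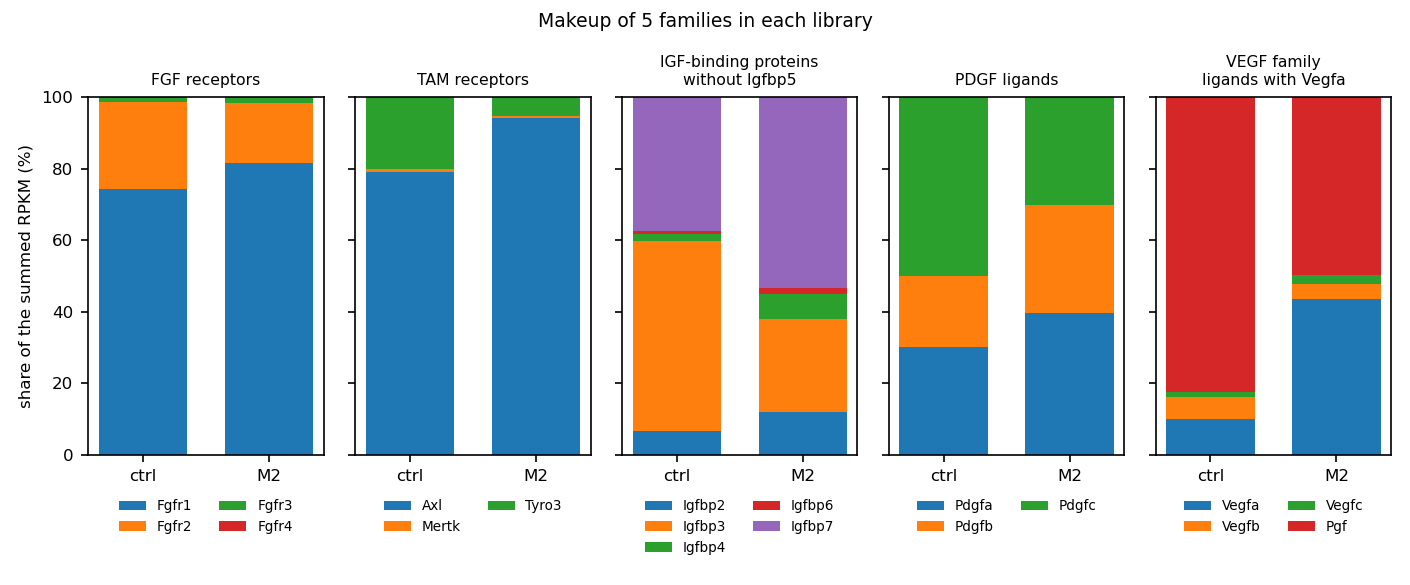
Share (%) of the summed RPKM (y axis) that each gene holds in 5 families, in the ctrl and the M2 library (x axis), 1 library each and no error bars. Axl goes from 79.2 to 94.4% of the TAM receptors, and Igfbp3 from 53.3 to 26.0% of the binding proteins other than Igfbp5.

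Of the remaining receptors only 1 was called. Ntrk2, the receptor of brain-derived neurotrophic factor, fell from 168 to 65 reads, giving a log2 difference of -1.43 (interval of -1.88 to -1.02; adjusted p = 3.2e-12, exact binomial test with Benjamini-Hochberg adjustment). Its 8 coding transcripts in GENCODE M21 run from 50 to 821 codons and include receptors without a kinase, which gene counts cannot separate. Ret, the receptor of the GDNF family, had 69 and 120 reads and a log2 difference of 0.72. Met, the receptor of hepatocyte growth factor, had 1399 and 2572 reads and a log2 difference of 0.81 (interval of 0.71 to 0.90), while its ligand Hgf, usually made by stroma, had 46 and 93 reads and one of 0.93 (interval of 0.42 to 1.49). All 3 genes of the HGF and MET group, Mst1r with 41 and 77 reads included, had positive differences under 2-fold.

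The collagen receptors DDR1 and DDR2, which are switched on by fibrillar or basement membrane collagen rather than by a soluble factor, were not called. Ddr1, the epithelial member, had 6427 and 4927 reads and a log2 difference of -0.45 (interval of -0.51 to -0.40). Ddr2, usually of the stroma, had 293 and 263 reads and a log2 difference of -0.22 (interval of -0.47 to 0.02).

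The other genes of these systems were drawn from lists of 152 genes, of which 115 were tested, 18 rose and 12 fell, with a median log2 difference of -0.07. The shares over all 19233 genes were 8.16% higher and 6.55% lower. In the FGF list 3 of 12 rose and 1 fell (median of 0.48). Fgfbp1, a carrier that releases FGFs from the matrix, rose from 607 to 1926 reads, Flrt1 from 19 to 44 and Fgf13 from 16 to 36, while Fgf12 fell from 61 to 1. Fgfrl1, the most read, had 2134 and 1735 reads and was not called.

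In the IGF list 4 of 11 rose and 1 fell (median of 0.66), against 8.16% and 6.55% of all genes. Those that rose were Igf2bp2, an RNA-binding protein (52 to 325 reads), Pappa, the protease of IGFBP4 (107 to 289 reads), Igfals, the partner of IGFBP3 in serum (23 to 190 reads) and Igf2 (10 to 83 reads). Stc2, an inhibitor of PAPP-A and the most read of the list, fell from 9668 to 2572 reads, giving a log2 difference of -1.98 (interval of -2.04 to -1.92). In the list of HGF and MSP activation 1 of 6 rose, Hgfac, on 1 and 13 reads, and the activating protease St14 had 10517 and 11127 reads.

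In the list of further PDGF, VEGF and angiopoietin genes 4 of 10 rose and 2 fell (median of 0.14), against 8.16% and 6.55% of all genes. Besides Vegfa, Nrp2, a co-receptor of VEGFC, rose from 1048 to 2485 reads, Pdgfd from 35 to 134 and Flt4, the receptor of VEGFC, from 7 to 39. Angpt2 (13 and 1 reads) and Angpt4 (19 and 3 reads) fell. In the neurotrophin and GDNF list 4 of 13 rose and 3 fell (median of -0.02). Gfra2, the co-receptor of neurturin, rose from 166 to 554 reads, Ntrk3 from 72 to 438 and Gdnf from 34 to 366, while Sort1 fell from 3556 to 1540, Bdnf, the ligand of NTRK2, from 630 to 172 and Nrtn from 457 to 161. Ngfr rose from 16 to 86 reads. In these lists Igf2, Angpt2, Angpt4, Ntrk3, Gdnf and Ngfr were chosen after their values were seen. The difference of Gdnf, 3.32 on the log2 scale (interval of 2.85 to 3.91), was the only rise of the 115 genes that was also called with a coefficient of variation of 0.4.

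**Figure D4:**
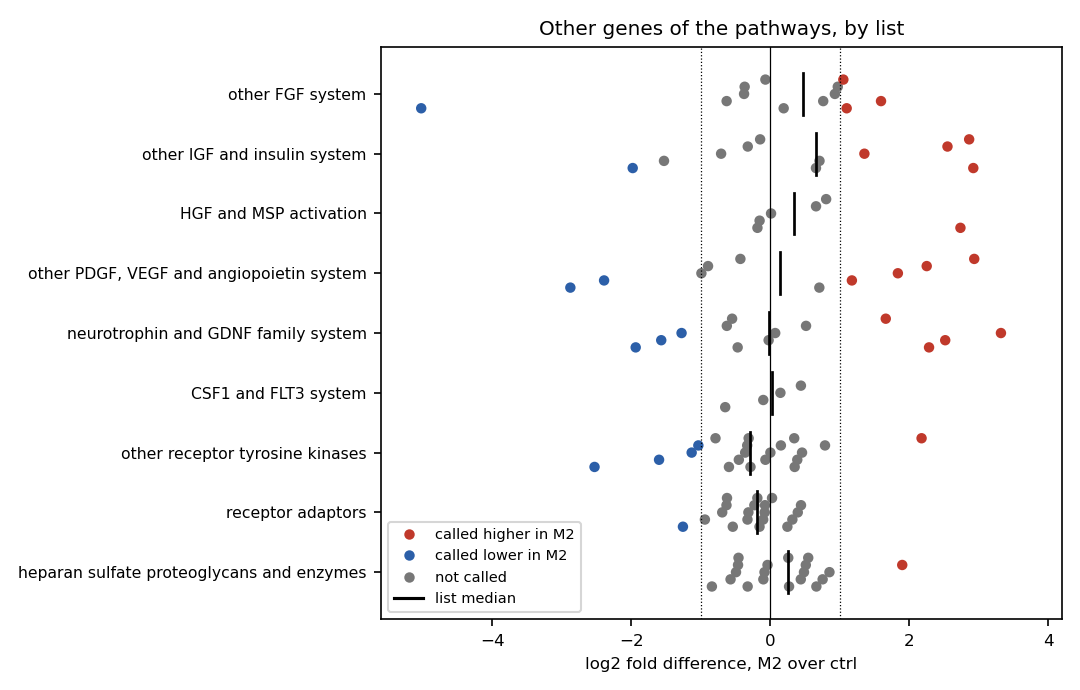
Log2 difference of the M2 over the ctrl library (x axis) for the listed genes of the same pathways that are not among the 42, by list (y axis). Each point is 1 gene, measured in 1 library per group, vertical bars are list medians (from -0.30 to 0.66) and dotted lines mark 2-fold. The neurotrophin and GDNF list holds the highest point, Gdnf at 3.32.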

How the data were processed

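Bulk RNA sequencing was measured in 1 library of ctrl cells and 1 of M2 co-cultured cells, grouped by the sample titles. The authors deposited raw read counts per gene, with gene coordinates and exon lengths, and with no normalization. GRCm38 and mm10 are the builds in the submitters' processing notes; the aligner, counter, annotation, use of strand and read filters are not given in the sources used here. Coordinates overlapped the gene of the same name in GENCODE M21 for all 42 genes. The series text speaks of a microarray, but the values are sequencing counts. For the extraction the labels name a column kit and the study's methods RNAiso Plus. No column of another sample was present.

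Genes with at least 10 reads over both libraries were tested. TMM factors came from edgeR 4.0.16 in R 4.3.3, and the exact binomial test, two-sided and with Benjamini-Hochberg adjustment, from scipy 1.17.1 in Python 3.11.15. A pseudocount of 1 was used for log2 differences, and calls needed an adjusted p under 0.05 and 2-fold, the thresholds of the study. The quasi-likelihood test of edgeR needs replicates and was replaced by this test and by exactTest with assumed coefficients of variation of 0.1, 0.2 and 0.4. Intervals are 95% Clopper-Pearson intervals for differences and 95% Wilson intervals for shares. Intervals of ratios between genes use the log-normal approximation to counting error. Molecular identifiers are not mentioned, so the intervals, and the floor of 3 reads (0.109 CPM in ctrl, 0.104 in M2), cover counting error only. RPKM was computed from the counts, the deposited lengths and the effective library sizes. Promoters came from RefSeq, taking the start nearest to that of the count table. The functions were tested on simulated data.

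The 42 genes and the lists were chosen with earlier results of these data known. All 42 genes are named. From each pathway list the text names up to 4 called genes with the most reads and the most read gene, and from each cell type list its sum, the genes at 3 reads or fewer and up to 3 genes with the most reads. Any other gene was chosen after its values were seen. Alternatives were library size alone, upper quartile and DESeq2 1.42.0 size factors, pseudocounts of 0.5 and 5, other filters, a 4-fold threshold and removal of the trend with gene length over 20 bins.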

Additional observations from a re-analysis of the deposited data

How the results depend on the processing

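No paired analysis was possible because the groups hold a single library apiece. Scaling by library size alone, by upper quartile or by DESeq2 size factors, and a pseudocount of 0.5, changed none of the 12 calls among the 39 genes. A pseudocount of 5 ended the call of Mertk. Coefficients of variation of 0.2 and 0.4 ended 2 and 11 calls, leaving 1 higher and 0 lower at 0.4, and a 4-fold threshold ended 7, leaving 2 higher and 3 lower. The median was 0.16 over the 38 genes with at least 1 CPM in both libraries, which left out Kdr. It was -0.0212 over the 41 genes with at least 1 read over both, which added Fgf18 and Fgfr4. With the trend with gene length removed, Fgf1 went to 0.0109 and Pgf to -0.00858, and in the lists Epha5 went to 0.0268 and Hs2st1 to 0.0138. Library size alone turned St14 to -0.0469, Ptk7 to -0.0564 and Sos1 to -0.0327. None of these 7 genes was called.

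Over all genes, 797 higher and 583 lower were called with at least 1 CPM, 964 and 691 at a coefficient of 0.2, 175 and 130 at 0.4 and 616 and 494 at 4-fold. In the pathway lists the counts were 9 higher with at least 1 CPM, 7 lower at 0.2, 1 and 1 at 0.4 and 10 and 4 at 4-fold. By list, at least 1 CPM left 1 higher and 0 lower in the FGF list, 2 higher in the IGF list, 0 lower in the PDGF, VEGF and angiopoietin list, and 0 higher in the HGF, other receptor and heparan sulfate lists. A pseudocount of 5, and coefficients of 0.1 and 0.2, left 1 higher in the FGF list. At 0.2 there were 0 higher in the HGF list, 0 lower in the PDGF, VEGF and angiopoietin list and 1 lower among the other receptors. At 0.4 the count was 0 in every list and direction that had calls, except for 1 higher in the neurotrophin and GDNF list and 1 lower in the FGF list. At 4-fold there were 0 higher in the FGF and heparan sulfate lists, 2 higher in the PDGF, VEGF and angiopoietin list, 0 lower in the IGF, neurotrophin and GDNF and adaptor lists and 1 lower among the other receptors. The cause of these changes, beyond fewer genes or a stricter rule, was not tested. Depth limits Kdr, Fgf10, Fgf18, Fgfr4 and the listed genes under about 40 reads, whose intervals span several-fold.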

Other observations

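Of 26 listed receptor tyrosine kinases outside these systems, 20 were tested, 1 rose and 4 fell, with a median log2 difference of -0.30. Over all genes 8.16% were called higher and 6.55% lower, with a median of -0.0032. Ror2, a receptor of non-canonical Wnt signals, rose from 11 to 56 reads. The receptors that fell were Ephb3 (1850 to 886 reads), Epha7 (1838 to 941 reads) and Epha3 (274 to 49 reads), which bind ephrins on neighbouring cells, and Aatk (25 to 8 reads). Ptk7, the most read of the list, had 3567 and 3749 reads and a log2 difference of 0.0026. In the CSF1 and FLT3 list none of 4 was called by the exact binomial test, 3 had an adjusted p under 0.05, and Flt3l had 10298 and 11962 reads.

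All 19 listed adaptors and effectors that receptors share were tested, and by the exact binomial test none rose and 1 fell. The shares over all genes were 8.16% higher and 6.55% lower. Their median log2 difference was -0.18, with 14 of the 19 negative and 16 at an adjusted p under 0.05, against 10221 of 19233 over all genes. The latter comparison depends on read number, for which the adaptors and all genes were not matched. Grb14, which inhibits the insulin receptor, fell from 896 to 393 reads, giving a log2 difference of -1.26 (interval of -1.43 to -1.09). Ptpn11, the phosphatase SHP2 and the most read, had 5190 and 6793 reads and a log2 difference of 0.32. Among 19 tested genes of heparan sulfate proteoglycans and their enzymes 1 rose, the sulfotransferase gene Hs6st2, from 11 to 46 reads, with a median of 0.26. Sdc4, the most read, had 42110 and 29745 reads and a log2 difference of -0.57 (interval of -0.59 to -0.55), and was not called.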
